A study of Mus musculus with 8 samples.

Results

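The genes described here are those of the hormone-making cells that share the thyroid region with the thyrocytes, namely the parathyroid cells and the calcitonin-making C cells. They were chosen by name as Pth, Gcm2, Casr, Calca, Calcb, Chga, Chgb, Scg2, Sst and Ret, and every array spot that is no control and carries one of these 10 names was kept. This gave 29 spots for 11 probes, out of 59305 spots for 55681 probes on each array, with a pair of probes for Calca and 1 probe for each of the other genes. All 10 genes are therefore accounted for, and no filter on low signal was applied to them.

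Thyroid RNA was hybridised to 8 one-colour Agilent mouse arrays, on which a brighter spot means more of the transcript bound by its probe. Per the methods of the study, all mice were 8-week-old Balb/c females on a normal-iodide diet. The 4 exposed mice (Tc), labelled S539, S588, S589 and S590, received 99mTcO4- into the peritoneum for an absorbed dose of 30 Gy to the thyroid, and RNA was taken 24 hours later. The 4 control mice (Ct1 to Ct4) are described as untreated in the text of the study and as given saline in a figure legend, and each array holds 1 thyroid.

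Pertechnetate enters thyrocytes through the sodium iodide symporter, whose gene Slc5a5 is a defining gene of that cell type. Parathyroid cells sense blood calcium through the calcium-sensing receptor (Casr), depend for their formation on the transcription factor Gcm2, and release parathyroid hormone (Pth) when calcium is low. C cells lie between the thyroid follicles and release calcitonin when calcium is high. Calcitonin and the neuropeptide CGRP are made from alternatively spliced messengers of 1 gene, Calca, and a neighbouring gene, Calcb, encodes a second CGRP. Both cell types store their hormone in granules with the acidic proteins of the granin family (Chga, Chgb, Scg2), a part of the C cells also makes somatostatin (Sst), and C cells carry the receptor kinase Ret.

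Each Calca probe is tied by its RefSeq accession to a transcript of its own, variant 1 for the calcitonin form and variant 2 for the CGRP form, so that the products of this gene can be followed separately. On build mm9, as the array files give it, the variant 1 probe lies at chr7:121776948-121777007 and the variant 2 probe at chr7:121775204-121775263, both on the minus strand, and the Calcb probe lies nearby at chr7:121866534-121866593 on the plus strand. The last 30 bases of the Calca probes and of the probe of Pth (chr7:120529242-120529301, minus strand) are shown because these 3 messengers are the hormone messages on which the comparison turns. They are written 5′ to 3′ as in the array files, and capitals mark AATAAA, the letters of the common polyadenylation signal.
Calca variant 1: aggagaaagtcccacaggctaaaagagaat
Calca variant 2: atccAATAAAcatgacagcatggttctggc
Pth: atgaagatcaccaagtgctaatacttctac
Of the 11 member probes, 2 held AATAAA within their 60 bases, those of Calca variant 2 and Scg2. Which exon or untranslated region each probe covers was not determined here.

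The remaining probes lie, on mm9, at chr16:36493783-36493842 for Casr, chr12:103803083-103803142 for Chga, chr2:132620703-132620762 for Chgb, chr1:79431323-79431382 for Scg2, chr16:23889776-23889835 for Sst and chr6:118101791-118101850 for Ret. For Gcm2 the file places only 11 of the 60 bases, at chr13:41196796-41196806. Casr, Scg2, Sst, Ret and Gcm2 are on the minus strand, and Chga and Chgb on the plus strand.

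For genes that vary together across thyroids, as some of these did, the sequence before the start site can be set side by side. The 100 bases before the RefSeq start of the 3 member promoters that hold TGACGTCA, the letters of the cyclic AMP response element, are shown here with that of Chga, which holds its first 6 letters. They are taken from RefSeq on GRCm38.p6, at chr1:79440027-79440126 (minus strand) for Scg2, chr2:132781542-132781641 (plus strand) for Chgb, chr16:23890845-23890944 (minus strand) for Sst and chr12:102554841-102554940 (plus strand) for Chga. The strand of the gene is printed 5′ to 3′ with the matching letters in capitals.
Scg2: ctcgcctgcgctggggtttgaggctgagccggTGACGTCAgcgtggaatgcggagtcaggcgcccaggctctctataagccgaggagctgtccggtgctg
Chgb: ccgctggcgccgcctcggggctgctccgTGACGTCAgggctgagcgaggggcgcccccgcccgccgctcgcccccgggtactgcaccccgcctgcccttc
Sst: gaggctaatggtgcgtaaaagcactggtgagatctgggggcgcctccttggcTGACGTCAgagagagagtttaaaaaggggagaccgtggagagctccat
Chga: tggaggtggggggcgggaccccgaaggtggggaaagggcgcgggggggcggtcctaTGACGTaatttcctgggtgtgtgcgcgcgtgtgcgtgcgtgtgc
Searched on both strands of the window from 250 bases before to 50 bases after the start, TGACGTCA was present in 3 of the 8 member promoters held in the table and in 1.79% of all 32851 promoters. The shorter TGACGT, which every TGACGTCA contains, was present in 4 of the 8 (7.51% of all), and TATAAA in the promoters of Pth and Chga (13.6% of all). The promoter of Calca, whose probes varied with those of Scg2, Chgb and Sst, held neither TGACGTCA nor TGACGT. Chga, shown above, was outside the probes that varied together. Whether these letters bear on the shared variation was not tested. The promoters of Calcb and Ret are not in the table. A match of letters is a description and not a measured binding site.

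The arrays differed in ways that follow the groups only in part. Between 60.5% and 77.3% of spots were well above background. This share was 60.5% to 67.9% on Ct2 to Ct4 and 70.9% to 77.3% on the exposed arrays. Ct1 lay within the exposed range. No spot was saturated, and a single slide and scan held all 8. The exposed thyroids took its first positions and the controls the rest, and position cannot be told apart from group. Ct1 and Ct2 stood apart by the messengers of thymus. A score was formed for each list of marker genes as the mean over its genes of the log2 signal, centred on the mean of the 8 arrays. The score of 12 thymocyte genes was 3.62 on Ct1 and 2.55 on Ct2, against −1.38 to −0.04 on the other 6 arrays, and that of 10 genes of thymic epithelium was 1.27 and 1.23 against −0.65 to −0.24. Rag1, a recombinase gene of developing lymphocytes, was well above background on 2 control arrays and 1 exposed array. Skeletal muscle genes varied in both groups, with scores of −0.26 to 1.18 in controls and −1.48 to 0.70 in exposed thyroids. The labelled tissue was thyroid, and the log2 signal of thyroglobulin (Tg), the product of thyrocytes, was 18.85 ± 0.10 for controls and 18.89 ± 0.15 for exposed thyroids (SD, n = 4 each). Quantile normalization sets the value of so bright a probe by its rank, and Ct3 and S589 shared 1 value, so the small spread is no measure of equal amounts.

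None of the hormone and granule genes differed between exposed and control thyroids beyond limma's threshold. Of the 11 member probes, 0 passed an adjusted p of 0.05, against 0.781% of all 55681 probes (435 probes, with 0.587% of all in the higher and 0.194% in the lower direction). With no adjustment, 1 member probe, that of Calca variant 2, passed 0.05, against 12.2% of all probes. In 0 of the 11 did the exposed arrays all lie on one side of the controls, against 9.11% of all probes. The log2 fold changes, exposed minus control, were above 0 for 9 probes and below 0 for 2, with a median of 0.42 over the 11 probes and of 0.0077 over all probes. A fold change here is a difference of mean log2 signals, and in RNA of whole tissue fewer cells of a type and less RNA per cell cannot be told apart. Nothing in the labels says more of the animals than that each array is a separate sample, so the p-values measure the spread between these samples.

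**Figure D1:**
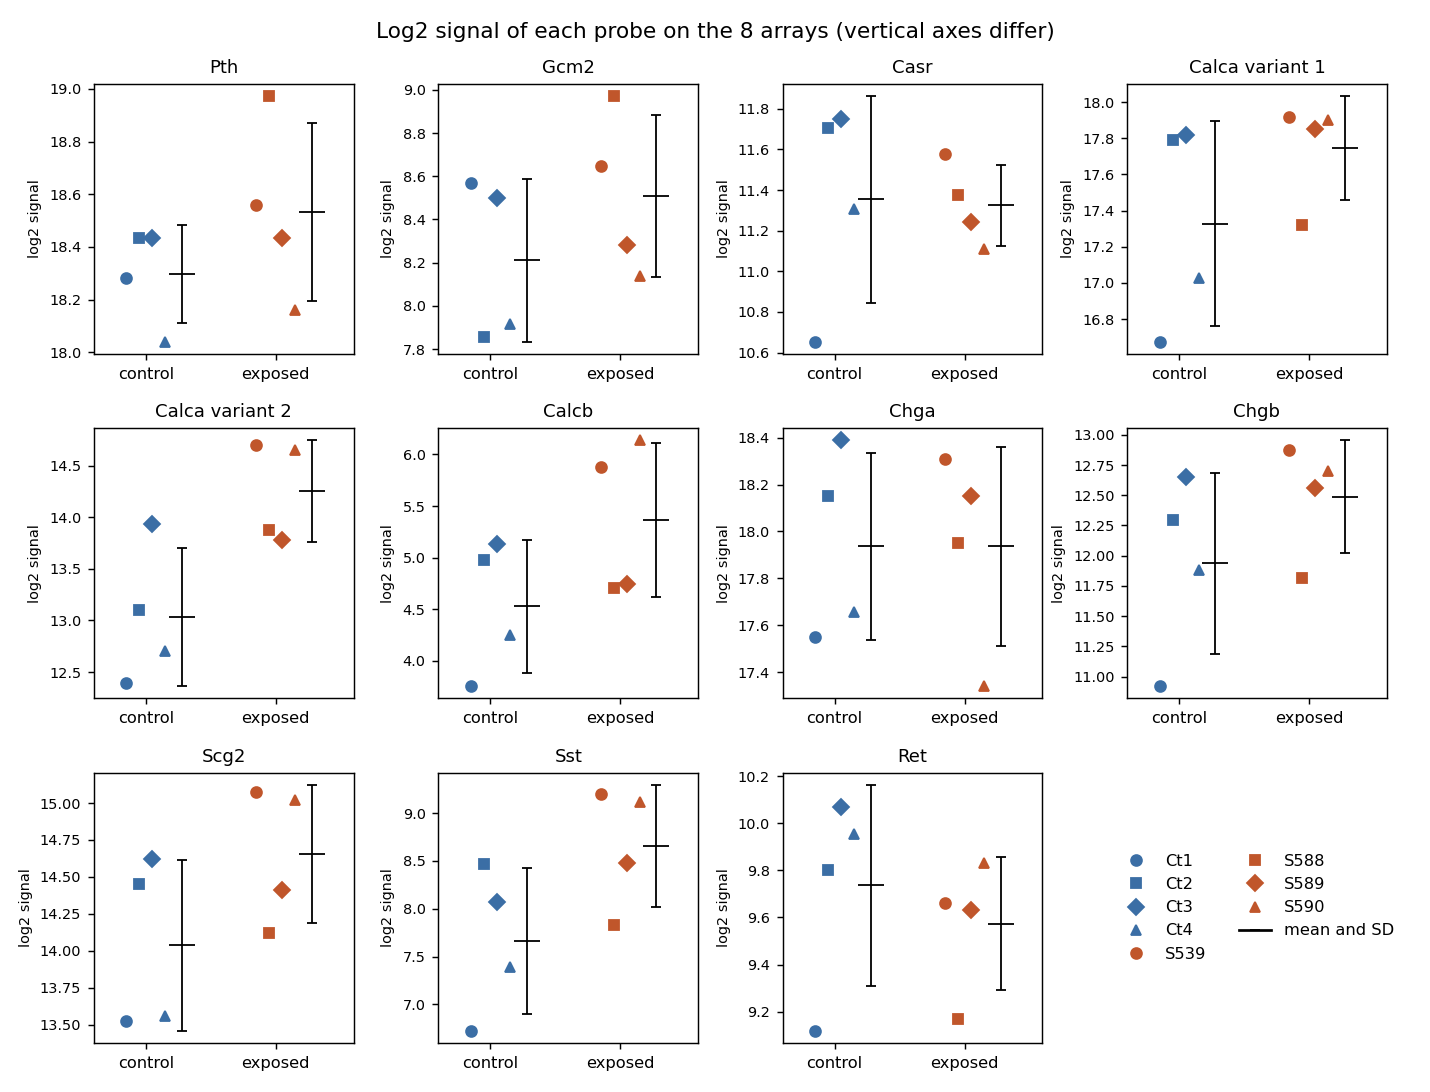
Log2 signal (quantile-normalized, vertical axes differing between panels) of each of the 11 member probes on the 4 control arrays (blue) and the 4 exposed arrays (orange), with the mean and SD of each group in black. In every panel the groups overlap, Ct1 is the lowest array in 8 of the 11 panels, and S588 is the highest for Pth and Gcm2.

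**Figure D2:**
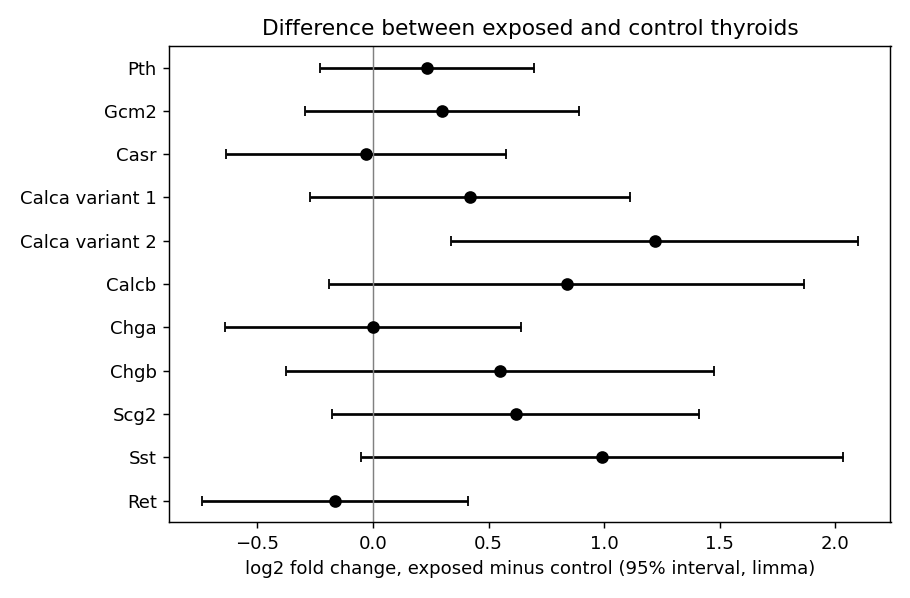
Log2 fold change of each member probe, exposed minus control, on the horizontal axis, with its 95% interval from limma. The interval includes 0 for 10 of the 11 probes, and that of Calca variant 2 runs from 0.34 to 2.10.

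Pth, the hormone message of the parathyroid cells, was among the brightest probes of every array, at rank 2 to 34 from the top. Its log2 signal was 18.28 on Ct1, 18.44 on Ct2, 18.44 on Ct3 and 18.04 on Ct4. On the exposed arrays it was 18.56 on S539, 18.97 on S588, 18.44 on S589 and 18.16 on S590. S588 was the highest array and Ct4 the lowest, and the groups overlapped. The log2 fold change was 0.23, its standard error (SE) 0.20 and its 95% interval ran from −0.23 to 0.70 (limma's adjusted p = 0.660). The two-sided exact permutation test over the 70 assignments of 4 and 4 arrays gave p = 0.286, where the smallest possible is 0.0286.

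The size of this Pth value depended on how the arrays were scaled. Quantile normalization gives the probe of a given rank the same value on every array, and 3 arrays shared 1 value for Pth. Before normalization the signal lay between 299260 (Ct1) and 365791 (Ct2) on the control arrays. On the exposed arrays it was 305833 on S590, 338200 on S589, 348746 on S539 and 550409 on S588. Unscaled, 3 of the 4 exposed arrays thus lay within the control range and S588 lay above it. But the arrays differed in brightness. The 75th percentile of signal was 701 on Ct1, 1144 to 1230 on Ct2 to Ct4 and 712 to 891 on the exposed arrays. With scaling to that percentile the log2 values were 8.16 to 8.74 in controls. S539 (8.94) and S588 (9.52) lay above these, and S589 and S590 lay within. The log2 fold change was then 0.53 (limma's adjusted p = 0.402). With quantile normalization it was 0.086 without S588, 0.15 without Ct4, 0.36 without S590 and 0.091 with array weights.

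Gcm2, the transcription factor on which the parathyroid lineage depends, shared with Pth the highest arrays, S588 and then S539, but not the lowest array. Its log2 signal was 8.57 on Ct1, 7.86 on Ct2, 8.50 on Ct3 and 7.92 on Ct4, and 8.65 on S539, 8.97 on S588, 8.28 on S589 and 8.14 on S590. S588 was again the highest array, and the controls fell into a higher pair, Ct1 and Ct3, and a lower pair. The group values of 8.21 ± 0.38 and 8.51 ± 0.37 (SD, n = 4 each) gave a log2 fold change of 0.30 (SE 0.26, interval −0.29 to 0.89, limma's adjusted p = 0.659), and 0.15 without S588, 0.18 without Ct2 and 0.20 without Ct4. The Pearson correlation of Pth with Gcm2 over the 8 arrays was 0.75 (Spearman's rho 0.66). It was 0.26 without S588 and Ct4, the arrays farthest from the median of Pth. Leaving out the farthest arrays narrows the range and tends to lower r, so it cannot decide what the relation rests on.

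Casr, the receptor by which both cell types sense calcium, did not follow Pth. Its log2 signal was 10.65 on Ct1, 11.71 on Ct2, 11.75 on Ct3 and 11.31 on Ct4, and 11.58 on S539, 11.38 on S588, 11.24 on S589 and 11.11 on S590. All exposed arrays lay inside the range of the controls. The log2 fold change was −0.03 (SE 0.26, interval −0.64 to 0.58, limma's adjusted p = 0.972), and its sign turned when Ct2, Ct3 or S590 was left out. Its correlation was 0.33 with Pth and −0.11 with Gcm2, against 0.78 with Chga.

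The list of parathyroid genes held, beside these 3 members, 12 further genes of the lineage and of calcium and vitamin D handling, and 13 of its 15 genes were measured well above background throughout. Of the 15 genes, 3 were higher and 12 lower in exposed thyroids, with a median log2 fold change of −0.06, and 1 passed the threshold, where 1.2% of the 21021 RefSeq genes did (252 genes). That gene was Cyp27b1, which encodes the hydroxylase that makes active vitamin D. Its log2 signal was 7.16 on Ct1, 8.21 on Ct2, 7.46 on Ct3 and 6.93 on Ct4, and 5.31 on S539, 4.16 on S588, 5.03 on S589 and 4.73 on S590. Every exposed array lay below every control. Cyp27b1 fell by 2.63 on the log2 scale (SE 0.34, limma's adjusted p = 0.0205). Its probe was well above background on all 4 control arrays but on only 2 of the 4 exposed arrays, and the size of the fall depended on the background correction, with log2 fold changes of −1.38 with normexp, −1.55 without correction and −1.56 in the deposited values. Without Ct1 and Ct2, the arrays with the high thymus scores, the log2 fold change was −2.39 and the adjusted p 0.113. The enzyme is also known from other tissues, and which cells of the samples carried it was not measured. Gata3, a factor that acts upstream of Gcm2, had a log2 fold change of −0.79 (limma's adjusted p = 0.382).

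The calcitonin form of Calca was bright on every array. The log2 signal of variant 1 was 16.67 on Ct1, 17.79 on Ct2, 17.82 on Ct3 and 17.03 on Ct4. It was 17.92 on S539, 17.32 on S588, 17.85 on S589 and 17.90 on S590. Ct1 and Ct4 were low, while 3 of the 4 exposed arrays lay just above the highest control and S588 lay inside the control range. The log2 fold change was 0.42 (SE 0.30, interval −0.27 to 1.11, limma's adjusted p = 0.594), and the two-sided exact permutation test gave p = 0.171. Without Ct1 the log2 fold change was 0.20, and with array weights 0.22.

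The CGRP form of the same gene had the largest difference among the member probes. The log2 signal of variant 2 was 12.39 on Ct1, 13.10 on Ct2, 13.94 on Ct3 and 12.70 on Ct4. It was 14.70 on S539, 13.87 on S588, 13.78 on S589 and 14.65 on S590. All exposed arrays lay above Ct1, Ct2 and Ct4, but only S539 and S590 lay above Ct3. The group values were 13.03 ± 0.67 and 14.25 ± 0.49 (SD, n = 4 each), and the log2 fold change was 1.22, or 2.33-fold, with an SE of 0.38 and an interval from 0.34 to 2.10. Limma's p was 0.0128 before and 0.259 after adjustment over all probes, and the two-sided exact permutation test gave p = 0.0857. Without Ct1 and Ct2 the log2 fold change was 0.93 (limma's adjusted p = 0.446).

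The difference of the Calca probes on the same array removes what scales both signals alike. This quantity was chosen after the values above were seen. The log2 signal of variant 2 minus that of variant 1 was −4.28 on Ct1, −4.69 on Ct2, −3.88 on Ct3 and −4.33 on Ct4. On the exposed arrays it was −3.22 on S539, −3.44 on S588, −4.08 on S589 and −3.25 on S590. S539, S588 and S590 lay above every control, and S589 lay within the control range. The mean difference was −4.29 ± 0.33 in controls and −3.50 ± 0.40 in exposed thyroids (SD, n = 4 each), so it was higher in exposed thyroids by 0.80 (SE 0.26), a ratio of 1.74. The two-sided exact permutation test gave p = 0.0571. With 1 array left out in turn the value was 0.67 to 0.99 (exact permutation p of 0.0571 to 0.0857, and 0.0286 without S589, the exposed array inside the control range, whose removal itself sets the groups apart). Without Ct1 and Ct2 it was 0.61 (exact permutation p = 0.2). Since probes differ in their response, the level of this difference says nothing of how much of each messenger was present.

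**Figure D3:**
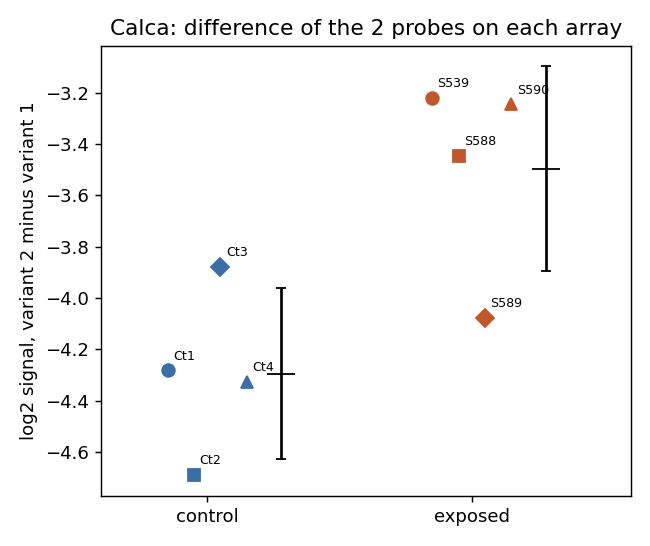
Log2 signal of the Calca variant 2 probe minus that of the variant 1 probe (vertical axis) on each of the 4 control and 4 exposed arrays, with the mean and SD of each group in black. S539, S588 and S590 lie above every control, and S589 lies among the controls.

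Calcb, the gene of the second CGRP, was the only member near background. Among the exposed arrays its probe was well above background on S539 and S590, and among the 4 controls on 0. The log2 signal was 3.75 on Ct1, 4.97 on Ct2, 5.13 on Ct3 and 4.25 on Ct4, and 5.88 on S539, 4.70 on S588, 4.74 on S589 and 6.14 on S590. The controls therefore give a bound only. With the higher of the probe's own signal and the lowest signal of any probe well above background on each control array, the mean of the controls was 5.22, against 5.37 over the exposed arrays. As S588 and S589 were not well above background either, no fold is given. The fitted log2 fold change of 0.84 (SE 0.44, limma's adjusted p = 0.489) depends on signals near background, and it ranged from 0.12 to 1.36 over the other processings.

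The granins, which pack hormone into secretory granules, did not share 1 pattern over all 8 arrays. Chga, which encodes chromogranin A, had a log2 signal of 17.55 on Ct1, 18.15 on Ct2, 18.39 on Ct3 and 17.66 on Ct4, and 18.31 on S539, 17.95 on S588, 18.15 on S589 and 17.34 on S590. Its means were 17.94 ± 0.40 in controls and 17.94 ± 0.42 in exposed thyroids (SD, n = 4 each), with an interval of the difference from −0.64 to 0.64 (limma's adjusted p = 1.00), and its sign turned with the processing. S539 and S590 were the highest pair of arrays for Calca, Calcb, Chgb, Scg2 and Sst. On these arrays Chga was the second highest and the lowest of the 8 arrays. S590 was also the second lowest array for Pth. Without S590 and Ct1 the Pearson correlation of Chga was 0.87 with Chgb and 0.93 with Scg2.

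Chgb, which encodes secretogranin I, was measured by 10 spots of 1 probe, whose SD within an array was 0.0517 to 0.146. The log2 signal was 10.92 on Ct1, 12.30 on Ct2, 12.65 on Ct3 and 11.88 on Ct4, and 12.87 on S539, 11.81 on S588, 12.56 on S589 and 12.70 on S590. The spread between thyroids of 1 group was thus several times that between spots. The log2 fold change was 0.55 (SE 0.40, interval −0.37 to 1.48, limma's adjusted p = 0.601). It was 0.21 without Ct1, 0.67 without Ct2, 0.22 without both and 0.35 with array weights. Scg2, which encodes secretogranin II, had 13.52 on Ct1, 14.45 on Ct2, 14.62 on Ct3 and 13.56 on Ct4, and 15.07 on S539, 14.12 on S588, 14.41 on S589 and 15.02 on S590. S539 and S590 lay above every control, and S588 and S589 lay inside the control range, for a log2 fold change of 0.62 (SE 0.34, interval −0.18 to 1.41, limma's adjusted p = 0.505).

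Sst, the gene of the inhibitory hormone somatostatin, was also measured by 10 spots, with an SD within an array of 0.0806 to 0.192. Its log2 signal was 6.72 on Ct1, 8.47 on Ct2, 8.07 on Ct3 and 7.39 on Ct4. It was 9.20 on S539, 7.83 on S588, 8.48 on S589 and 9.12 on S590. S539 and S590 were clearly above the controls, S589 was level with Ct2, and S588 lay inside the control range. The log2 fold change was 0.99, with an SE of 0.45 and an interval from −0.05 to 2.03 (limma's adjusted p = 0.430, two-sided exact permutation p = 0.114).

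Ret, the receptor for ligands of the GDNF family and the gene mutated in inherited medullary carcinoma of C cells, had a log2 signal of 9.12 on Ct1, 9.80 on Ct2, 10.07 on Ct3 and 9.96 on Ct4. On the exposed arrays it was 9.66 on S539, 9.17 on S588, 9.63 on S589 and 9.83 on S590. The exposed arrays all lay within the range of the controls. The log2 fold change was −0.16 (SE 0.25, interval −0.74 to 0.41, limma's adjusted p = 0.812), and −0.37 without Ct1, −0.052 without Ct3, −0.090 without Ct4, −0.028 without S588, −0.25 without S590 and −0.44 without Ct1 and Ct2. Of the 8 genes for Ret ligands and co-receptors, 4 were higher and 4 lower (median 0.03), and 0 passed the threshold. Gfra1, the co-receptor for GDNF, had a log2 fold change of −1.24 with the groups apart (limma's adjusted p = 0.0844), its probe well above background on 4 control and 2 exposed arrays. Gdnf itself had −1.69 (adjusted p 0.393), with the probe well above background on 3 of the 8 arrays.

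Across the 8 thyroids, 6 probes of C-cell and granule genes varied together. These were Calca variant 1, Calca variant 2, Calcb, Chgb, Scg2 and Sst, set apart after their correlations were seen. Over the 15 pairs among them Pearson's r was 0.80 to 0.96, and 0.78 to 0.95 when each value was taken as its deviation from its group mean. Calcb was well above background on S539 and S590 only, so its pairs rest largely on signals near background. Pairs without Calcb also reached both ends of the range over all arrays, namely the Calca probes (0.80) and Calca variant 1 with Chgb (0.96). Calca variant 1 and Chgb had r = 0.96 (rho 0.95, and r = 0.94 without Ct1 and Ct4), a value reached with Calca variant 1 by 0.138% of the RefSeq genes ranked. Scg2 and Sst had r = 0.95 (rho 0.90). The Calca probes themselves had r = 0.80 (rho 0.88), and 0.78 as deviations from the group means. Without Ct1 and Ct4, the arrays farthest from the median of variant 1, r was 0.31. Leaving out the farthest arrays narrows the range, so it cannot decide what the relation rests on. All points share their arrays and normalization, and 55 pairs were computed in all.

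Pth and Gcm2 were outside this shared variation. Over the 12 pairs of Pth or Gcm2 with 1 of the 6 probes, r was −0.17 to 0.32. On Ct1 the 6 probes were each at their lowest, while Gcm2 was at its highest among the controls. On S588 Pth and Gcm2 were at their highest of all arrays, while Calca variant 1, Chgb, Scg2, Sst and Calcb were at their lowest among the exposed arrays. Casr had r of 0.39 to 0.68 with the 6 probes, and of 0.58 to 0.79 as deviations from the group means. Without Ct1 and Ct3, the arrays farthest from the median of Casr, r was −0.23 to 0.12. That cut narrows the range of Casr and cannot decide what the relation rests on. Ret had r = −0.51 with Pth and −0.64 with Gcm2. With the 6 probes its r was 0.24 (Calca variant 2) to 0.68 (Chgb). As deviations from the group means these were 0.67 (Scg2) to 0.92 (Chgb). The r of Ret over all arrays changed with the arrays left out, to −0.37 for Chgb without Ct1 and S588 and to 0.78 for Calca variant 1 without Ct1 and Ct4. Chga had 0.51 with Pth, 0.22 with Gcm2 and 0.16 to 0.51 with the 6 probes. Without S590 and Ct1 its r was 0.93 with Scg2, 0.87 with Chgb, 0.81 with Calcb and 0.74 with Sst. Without Ct1 and Ct4 it was 0.04 with Calca variant 1 and −0.36 with Calca variant 2. Without S588 and Ct4 its r with Pth was 0.93, so the place of Chga depends on a few arrays.

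**Figure D4:**
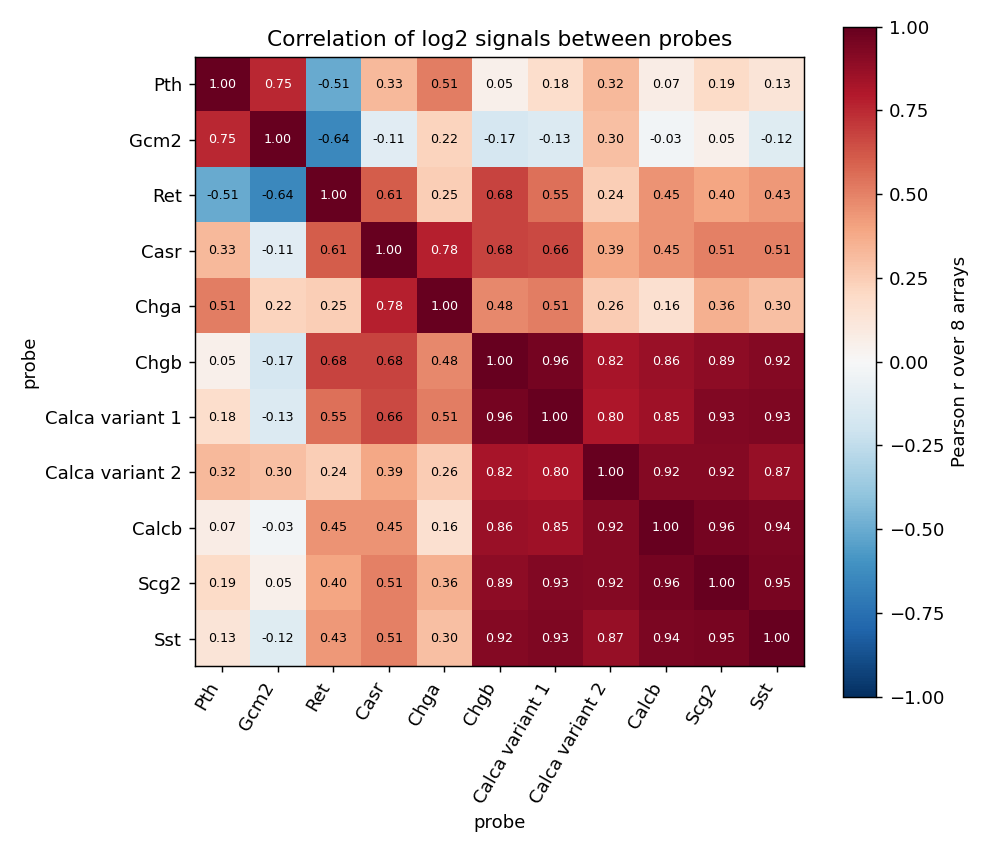
Pearson's r of the log2 signals over the 8 arrays for each pair of the 11 member probes, on a colour scale from −1 to 1 with the value printed in each cell. The 6 probes from Chgb to Sst form a block of r from 0.80 to 0.96, and Pth and Gcm2 have values of −0.17 to 0.32 with that block. Calcb, 1 of the 6, was well above background on S539 and S590 only.

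The arrays at the ends of this variation were the same for most members. Ct1 was the lowest array for 8 of the 11 probes (72.7%), against 24.3% of the 13758 other RefSeq genes of mean log2 signal of at least 7. S539 and S590 were the highest pair for the 6 probes that varied together. Ct1 was also the array with the highest thymocyte score (3.62), whereas Ct4, second lowest for 5 of the 6 probes, had the lowest (−1.38). The part of this tissue in the signals of Ct1 was not tested.

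The wider list of C-cell and neuroendocrine genes followed the same arrays in part. Of its 30 genes, 21 were higher and 9 lower in exposed thyroids, with a median log2 fold change of 0.26, and 0 passed the threshold. Among the 23 genes of the list that are no members, 15 were higher (median 0.20). Of these 23, 8 had r of at least 0.8 with Calca variant 1 (34.8%), against 5.31% of the other RefSeq genes, and 0 had such an r with Pth, against 0.785%. The 8, named after their values were seen, were Foxa2 (0.97) and Insm1 (0.88), which encode transcription factors, Pcsk1 (0.97) and Pcsk2 (0.90), which encode the prohormone convertases, Ddc (0.94), which encodes the decarboxylase of amine synthesis, Resp18 (0.94), Scg3 (0.92) and Scg5 (0.92). With Calca variant 2, r was 0.81 to 0.87 for Pcsk2, Resp18, Ddc and Scg3. For Foxa2, Pcsk1, Insm1 and Scg5 it was below 0.8, at 0.746 to 0.797. Other genes of regulated secretion did not share the order of Calca variant 1. Examples were Syp (r = 0.02 with it), Snap25 (−0.08), Cpe (−0.41) and Pcsk1n (−0.76), and the nerve and other endocrine cells also use such genes. None of the 12 further genes of the parathyroid list reached r of 0.8 with Calca variant 1 or with Pth, where the share among the other RefSeq genes was 5.31% and 0.785%, so that a count of 0 among 12 is at the background.

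Ranked over 13766 RefSeq genes of mean log2 signal of at least 7, the genes most like Pth over the 8 arrays were Cdh5 (r = 0.96), Ppp1r12c (0.94), Rpl30 (0.94), Mtmr4 (0.94) and Eln (0.93). Those most like Calca variant 1 were Tyro3 (0.99), Ift52 (0.99), Dram1 (0.97), St7 (0.97) and Ap1m2 (0.97). For Calca variant 2 they were Fzd7 (0.98), Grhl3 (0.97), Gsta3 (0.97), Zfp612 (0.97) and Tmtc3 (0.97). No gene is shared by these 3 sets of 5. Spearman's rho was 0.80 (Ppp1r12c) to 0.95 (Eln) for the set of Pth. It was 0.74 (Ift52) to 0.98 (Ap1m2) for Calca variant 1 and 0.90 (Grhl3) to 0.98 (Zfp612) for Calca variant 2. As the highest of 13766 genes over only 8 arrays, these values are high by selection, and no likeness was tested.

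The list of receptor genes for these hormones also held the receptor accessory genes Ramp1, Ramp2 and Ramp3. Of its 12 genes, 3 were higher and 9 lower in exposed thyroids (median −0.10). Of the 12, 1 passed the threshold, where 1.2% of the 21021 RefSeq genes did. Sstr3, which encodes a somatostatin receptor, had a log2 signal of 8.15 on Ct1, 8.50 on Ct2, 7.99 on Ct3 and 7.84 on Ct4, and 6.63 on S539, 5.98 on S588, 6.83 on S589 and 6.76 on S590. Every exposed array lay below every control. Sstr3 fell by 1.57 on the log2 scale (SE 0.24, limma's adjusted p = 0.0328). The call was lost whenever 1 array was left out, with adjusted p of 0.0524 to 0.106, and without Ct1 and Ct2 (log2 fold change −1.36, adjusted p 0.184). Calcr, the calcitonin receptor gene, had a log2 fold change of −1.21 with overlapping groups (adjusted p 0.557), and Pth1r, the receptor gene for parathyroid hormone, had −0.09 (adjusted p 0.875).

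Thyrocyte genes, measured on the same arrays, were mostly lower in exposed thyroids. Of 13 such genes, 11 were lower (median −0.47), and 2 passed the threshold, Slc5a5, the gene of the sodium iodide symporter, with a log2 fold change of −3.53 and Dio1, a deiodinase gene, with −2.46. Pax8, a thyroid transcription factor, had −0.58 (adjusted p 0.437). The thyrocyte score was 0.05 to 0.78 in controls and −0.49 to −0.27 in exposed thyroids, and these groups did not overlap, while the C-cell score (−0.44 to 0.20 and −0.25 to 0.38) overlapped. Parathyroid scores were −0.05 to 0.26 in controls and −0.20 to −0.06 in exposed thyroids, which did not overlap. The same held for the hormone receptor list (0.05 to 0.27 and −0.41 to 0.02). It also held for the Ret ligands and co-receptors (−0.11 to 0.80 and −0.22 to −0.14), so this was no trait of thyrocyte and parathyroid genes alone. The genes of the thyrocyte and parathyroid lists past the threshold were picked in these data for their fall. Leaving them out was therefore bound to narrow the separations, and cannot decide what they rest on. Without Cyp27b1 the parathyroid score was −0.11 to 0.13 in controls and −0.13 to 0.0099 in exposed thyroids, and without Slc5a5 and Dio1 the thyrocyte score was −0.12 to 0.52 and −0.32 to −0.10, so that the groups overlapped in both lists. In the thyrocyte list the overlap was only that of Ct1 (−0.115) with S588 (−0.101). The difference between the scores was not tested. Without Ct1 and Ct2 the log2 fold changes were −3.67 for Slc5a5 (adjusted p 0.0860) and −2.47 for Dio1 (adjusted p 0.110). Slc5a5 also missed the threshold without Ct2, S589 or S590 (adjusted p up to 0.0577), and Dio1 without Ct2, S539, S589 or S590 (up to 0.0618).

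**Figure D5:**
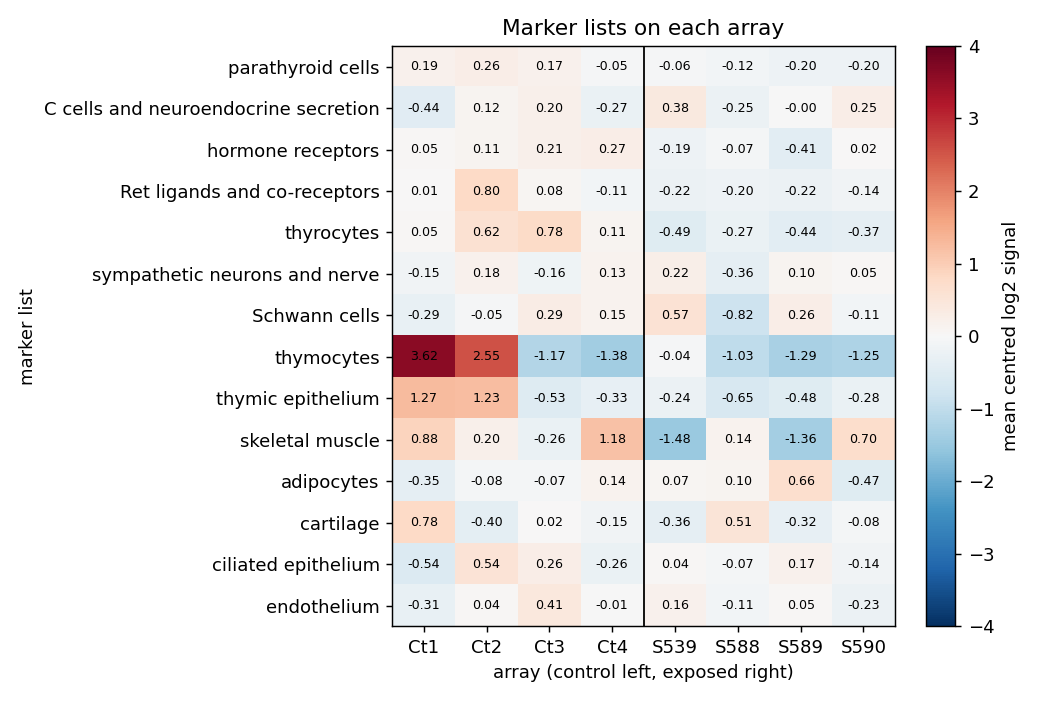
Score of each of 14 marker lists (rows) on each array (columns, controls left of the line), as the mean over the list of log2 signals centred on the mean of the 8 arrays, in colour and in print. Thymocyte scores of 3.62 and 2.55 set Ct1 and Ct2 apart, and the C-cell score is lowest on Ct1 (−0.44) and highest on S539 (0.38).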

How the data were processed

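The deposited scanner files give, per the file headers, the intensity of each spot from Feature Extraction 10.7.3.1, as raw and background-subtracted signal, with probe positions on mm9. The authors also deposited a table of log2 values, normalized by quantiles in limma per the methods. Its values lay within 0.0378 of quantile-normalized log2 median signals without background subtraction, and it was used as an alternative only.

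Here the background-subtracted signal of 59305 non-control spots was log2-transformed, normalized by quantiles, averaged per probe and compared by lmFit and eBayes (R 4.3.3, limma 3.58.1), with Benjamini-Hochberg adjustment over 55681 probes and a threshold of 0.05. The procedure was tested on simulated data. Single values were compared by two-sided exact permutation tests. RefSeq accessions gave gene names (27220 of 27752 probes, 11 of 11 members), and a gene outside the members was read at its RefSeq probe of highest mean signal.

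The members and gene lists were chosen with earlier results of these data known. Named genes were the members, those of each list past the threshold or otherwise the 2 with the largest absolute log2 fold change, Tg, Pax8, Acta1 and Rag1, and the 5 genes most like Pth and each Calca probe. A gene that this rule names is not reported here. Others were named after their values were seen, such as those most like Calca in the C-cell list. The alternatives were the deposited values, normexp (offset 50) or no background correction, scaling to the 75th percentile, array weights, an intensity trend, the methods' t-test (named in the methods for comparisons of pairs in general, not for the arrays, for which they name limma), and leaving out dim probes, outlier spots or each array in turn. Leaving out Ct1 and Ct2 together was chosen after seeing the data. The number of arrays limits the precision.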

Additional observations from a re-analysis of the deposited data

Results flagged for a closer look

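In the exposed group, the Calca variant 1 signal of S588 (17.32) lay far from the other 3 exposed arrays (17.85 to 17.92). The gap was 0.888 of the whole range of the group, above Dixon's 95% critical value for 4 samples. Of 24 groups of 4 examined this was the only one, and chance gives about 1.2. S588 was also the lowest exposed array for Chgb, Scg2, Sst and Calcb, and the highest of all arrays for Pth and Gcm2.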

How the results depend on the processing

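No member probe passed the threshold under any alternative run, and the lowest adjusted p among 198 values was 0.130, for Calcb with scaling to the 75th percentile. Of these 198 values 13 changed sign, in Casr and Chga only. Casr turned without Ct2 (0.09), Ct3 (0.10) or S590 (0.04) and ranged from −0.26 to 0.10 with 1 array left out. Chga was −0.036 with normexp, −0.034 without background correction, −0.033 in the deposited values, −0.19 with array weights, −0.085 without Ct1 and Ct2, and −0.13 to 0.20 with 1 array left out. The Calca difference ranged from 0.69 to 0.80 over the other processings, and from 0.67 to 0.99 with 1 array left out. The number of probes of all kinds past the threshold, 435, became 857 with normexp, 962 without background correction, 955 in the deposited values, 733 with the filter on dim probes, 289 with the methods' t-test, 744 with an intensity trend, 959 with array weights, 89 without Ct1 and Ct2, and 100 to 481 with 1 array left out. The cause was not tested. Cyp27b1 and Sstr3 missed the threshold with the methods' t-test, which the methods do not name for the arrays (adjusted p 0.0599 and 0.0707), and Cyp27b1 also without Ct2, Ct3, S589 or S590 (up to 0.0730). Calcb is limited by signal near background. No paired analysis was possible because the labels of the groups share no replicate numbers.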

Other observations

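The other marker lists gave the following values, exposed minus control. Of 14 genes of sympathetic neurons and nerve 8 were higher (median log2 fold change 0.00) and 0 passed the threshold. The largest differences were in Phox2a (−0.91) and Snap25 (0.80). Of 10 Schwann cell genes 6 were higher (median 0.03) and 0 passed, with S100b at −0.64. Nerve, which can also hold Calca and Calcb messengers, had scores of −0.16 to 0.18 in controls and −0.36 to 0.22 in exposed thyroids, and its part in the Calca values was not tested.

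Thymocyte genes were lower in 11 of 12 (median −2.02), with Rag1 at −3.62 and Cd3d at −3.08, and genes of thymic epithelium in 7 of 10 (median −0.56), with Prss16 at −2.83 and Ccl25 at −2.08. The scores of both lists were high on Ct1 and Ct2 only. On Ct3 and Ct4 the thymocyte score was −1.17 and −1.38, against −1.29 to −0.04 on the exposed arrays. That of thymic epithelium was −0.53 and −0.33, against −0.65 to −0.24. All 11 skeletal muscle genes were lower (median −1.05), with Myh2 at −1.52, Myh1 at −1.44 and Acta1 at −0.94. In these 3 lists 0 genes passed that threshold. Of 8 adipocyte genes 5 were higher (median 0.38), with Lep at −0.73 and Cidec at 0.66, and 0 passed. Of 7 cartilage genes 2 were higher (median −0.31), with Col2a1 at 1.51 and Col9a1 at −1.30, and 0 passed. Of 8 endothelial genes 5 were higher (median 0.04), with Kdr at −0.55 and Plvap at −0.27, and 0 passed.

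Of 7 genes of ciliated epithelium 3 were higher (median −0.11), and Foxj1, which encodes a factor that directs the forming of motile cilia, rose by 2.49 (SE 0.33, limma's adjusted p = 0.0213). Its call was lost with the methods' t-test (adjusted p 0.0619), without Ct2, S539, S589 or S590 (log2 fold change 2.32 to 2.64, adjusted p up to 0.0810), and without Ct1 and Ct2 (2.68, adjusted p 0.118).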
